A study of Mus musculus with 6 samples.

Results

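The genes described here encode actin isoforms and the proteins of the calponin family and its surroundings that bind actin filaments. The 10 genes were chosen by name: the actins Acta1, Actc1, Acta2, Actg2, Actb and Actg1, the myosin light chain Myl9, the transgelins Tagln and Tagln2, and the calponin Cnn3. A probe set was used when the platform annotation gave it to exactly 1 gene, which left 9 of the 10 genes among 19938 genes measured. Actg1 had no such probe set, because 4 probe sets are given to Actg1 and Actb together, and these were not used. Each of the 9 measured genes has 1 probe set of its own.

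The data come from 6 whole-transcript arrays, 3 of freshly sorted satellite cells, the stem cells of skeletal muscle, and 3 of satellite cells kept for 5 days in culture. All cells came from 2-month-old C57BL/6J mice with no genetic change or injury named in the labels. They were sorted from hind-limb, abdominal and triceps muscle as positive for beta-1 integrin and CXCR4 and negative for CD45, CD31, CD11b, Sca1 and Ter119. The other group grew on collagen and laminin in F10 medium that held 20% horse serum, with bFGF added each day at 5 ng/ml. The labels name 3 mice but do not say which mouse gave which array, so p-values measure the spread between these arrays, which may be partly technical. All values are log2 expression values as deposited, group values are mean ± SD of 3 arrays, and levels of different probe sets are not compared with each other. A difference counted as past the test when limma gave a Benjamini-Hochberg adjusted p under 0.05 over all 19938 genes.

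Actins are the globular proteins that assemble into thin filaments, and mammals make muscle and cytoplasmic isoforms from separate genes. Acta1 and Actc1 are the skeletal and cardiac muscle forms, Acta2 and Actg2 the smooth-muscle forms, and Actb and Actg1 the cytoplasmic forms found in nearly all cells. Developing and regenerating skeletal muscle is known to use Actc1 before Acta1 prevails in mature fibres. Calponins and transgelins share a calponin domain and bind and stabilise filaments, and Myl9 is a regulatory light chain of the myosin that pulls on them. Many of these genes are known targets of the serum response factor, SRF, which binds the CArG box and is coactivated by MRTF proteins when free actin monomer is scarce.

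The stretches before the transcription start show which of the genes carry that element close by. RefSeq promoter sequences of assembly GRCm38.p6 matched 7 of the 10 genes, all but Actb, Actg2 and Tagln. The 250 bases before the start were searched on both strands. An exact CArG box lay in 4 of the 7, those of Acta1, Actc1, Actg1 and Myl9, while 1.47% of all 32851 promoter windows of this length hold one. Windows of 5 genes are printed because their levels are described below, 5′ to 3′ on the strand of the gene, with CArG boxes in capitals, exact ones for Actc1, Acta1 and Myl9 and matches with 1 mismatch for Acta2. The windows are chr2:114052876-114053125 on the minus strand for Actc1, chr8:123894776-123895025 on the minus strand for Acta1, chr19:34255374-34255623 on the minus strand for Acta2, chr2:156775214-156775463 on the plus strand for Myl9 and chr3:121426291-121426540 on the plus strand for Cnn3.
Actc1: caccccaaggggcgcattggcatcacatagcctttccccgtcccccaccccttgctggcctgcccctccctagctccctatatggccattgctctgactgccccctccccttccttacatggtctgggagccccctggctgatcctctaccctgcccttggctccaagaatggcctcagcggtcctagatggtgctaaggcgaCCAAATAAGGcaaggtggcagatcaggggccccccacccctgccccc
Acta1: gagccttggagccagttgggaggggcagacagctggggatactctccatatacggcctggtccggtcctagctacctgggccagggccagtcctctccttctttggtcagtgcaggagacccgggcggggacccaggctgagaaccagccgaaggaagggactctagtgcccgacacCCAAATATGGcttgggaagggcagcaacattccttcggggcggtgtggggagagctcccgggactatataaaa
Acta2: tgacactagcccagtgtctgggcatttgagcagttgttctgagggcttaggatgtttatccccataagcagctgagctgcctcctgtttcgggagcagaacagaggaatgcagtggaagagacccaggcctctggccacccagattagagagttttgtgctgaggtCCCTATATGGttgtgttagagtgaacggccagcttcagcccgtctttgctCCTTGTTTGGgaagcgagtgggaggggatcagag
Myl9: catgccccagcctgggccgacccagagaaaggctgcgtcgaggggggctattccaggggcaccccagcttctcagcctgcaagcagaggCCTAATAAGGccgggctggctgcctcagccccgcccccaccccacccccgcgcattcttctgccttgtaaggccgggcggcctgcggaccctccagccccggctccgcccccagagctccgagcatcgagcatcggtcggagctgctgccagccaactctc
Cnn3: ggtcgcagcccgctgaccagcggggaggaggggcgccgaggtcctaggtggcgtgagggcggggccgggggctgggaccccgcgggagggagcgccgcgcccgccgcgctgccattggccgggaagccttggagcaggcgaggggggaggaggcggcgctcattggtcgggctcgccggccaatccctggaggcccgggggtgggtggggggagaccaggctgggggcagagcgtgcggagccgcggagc
The first base of the exact match lay 47 bases before the start in Actc1, 73 in Acta1 and 161 in Myl9. The window of Acta2 held no exact match but had matches with 1 mismatch at 84 and 34 bases. This looser search was added after the sequences were seen and finds a match in 18.6% of all windows. It also found sites at 175, 138 and 87 bases in Actc1, 205 and 154 in Acta1 and 99 in Myl9, left in lower case. The windows of Cnn3 and Tagln2 held neither form. An E-box, CANNTG, the element bound by myogenic factors, was in the windows of Acta1, Acta2 and Actg1 and in 66.2% of all windows. Of the 4 genes with an exact CArG box, Actc1 and Myl9 rose in culture, Acta1 did not pass the test and Actg1 was not measured.

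Of the 9 measured genes, 2 rose in the cultured cells, Actc1 and Myl9, 1 fell, Cnn3, and 6 did not pass the test. Of all 19938 genes 4.32% passed, 0.953% higher and 3.37% lower. The cultured arrays lay wholly outside the fresh arrays for 5 of the 9 genes, against 23.2% of all genes: Actc1 and Myl9 above, and Tagln, Tagln2 and Cnn3 below. The median log2 fold change was 0.17 over the 9 genes and 0.04 over all genes. After a further quantile normalization 4 of the 9 genes rose and 1 fell, against 3.50% and 4.50% of all genes, and with cyclic loess 4 rose and 2 fell, against 2.50% and 5.10%. All 9 genes passed the filter on dim genes.

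**Figure D1:**
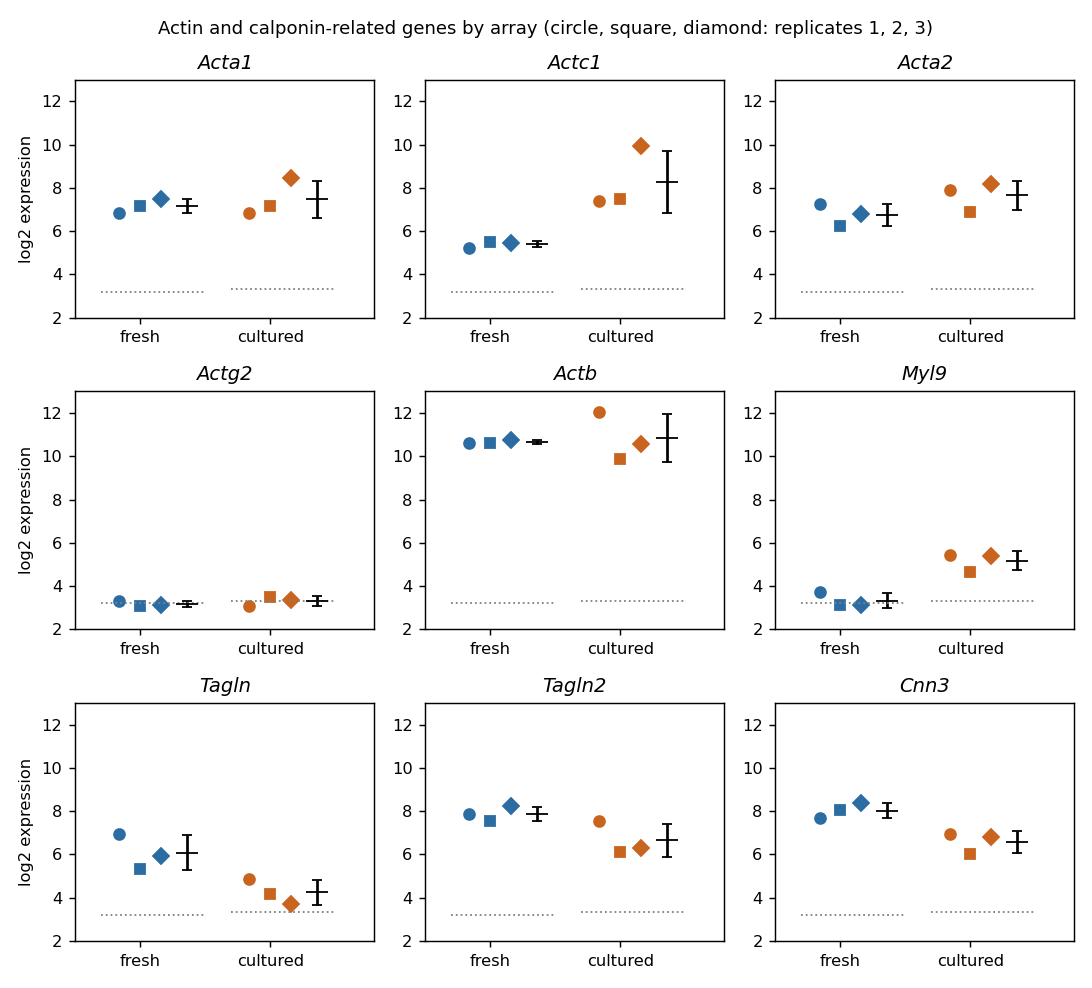
Log2 expression of the 9 measured genes on each array (circle, square and diamond for replicates 1, 2 and 3), with the mean and SD of each group of 3 in black and the background level dotted. Actc1 and Myl9 are higher and Tagln, Tagln2 and Cnn3 lower on every cultured array than on every fresh array, and Actb spreads over 2.20 on the cultured arrays.

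The arrays differed in ways that touch these genes. Genes with a mean of 7 to 9 over the 6 arrays, the range of Acta1, Acta2, Tagln2 and Cnn3, differed from their fresh means by a median of 0.04, -1.30 and -0.91 on the 3 cultured arrays, in the order of replicates 1, 2 and 3. Genes of 9 to 11, the range of Actb, had 0.47, -1.34 and -0.93, and genes up to 5 had 0.05, 0.03 and 0.05. Falls of brighter genes on cultured replicates 2 and 3 were thus common on the deposited scale, and a further quantile normalization and cyclic loess, which even this out, were run as alternatives. The background level, the 95th percentile of 1194 odorant and pheromone receptor genes not expected in muscle, was 3.21 on the fresh and 3.32 on the cultured arrays.

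The cardiac actin Actc1 showed the largest difference of the 9 genes. It stood at 5.25, 5.52 and 5.46 on the fresh arrays and at 7.38, 7.50 and 9.95 on the cultured arrays. Every cultured array was higher, cultured replicate 3 by far, while the fresh arrays lay within 0.27 of each other. The log2 fold change was 2.87 ± 0.62 (SE), a 7.30-fold difference, with an adjusted p of 0.0445 in limma. Without cultured replicate 3 it was 2.03, and the call was lost without fresh replicate 1, 2 or 3, at adjusted p of 0.135, 0.142 and 0.149. The fold change was 3.57 after quantile normalization and 3.31 with cyclic loess.

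The skeletal actin Acta1 was at 6.82, 7.17 and 7.47 on the fresh arrays and at 6.84, 7.16 and 8.45 on the cultured arrays. On the deposited scale the groups overlapped on cultured replicates 1 and 2, and cultured replicate 3 alone lay above the fresh range. Its fold change of 0.33 ± 0.40 (SE) on the log2 scale had an adjusted p of 0.734, and -0.15 without cultured replicate 3. The rescalings gave 1.20 and 0.87, with adjusted p of 0.228 and 0.405.

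Whether the muscle actins changed alike was measured within each array, where a shift common to the whole array drops out. A shift that differs with brightness does not drop out between genes of different brightness. Genes of 5 to 7, the range of Actc1, had medians of 0.13, -0.53 and -0.26 on cultured replicates 1, 2 and 3. Acta1 minus Actc1 was 1.58, 1.65 and 2.01 on the fresh arrays, while the cultured arrays gave -0.54, -0.34 and -1.50. The groups did not overlap, and the difference moved by -2.54 on the log2 scale, with p = 0.10 in an exact two-sided permutation test, the smallest p that 3 arrays against 3 allow. Adjusted over the 9 pairs of genes compared in this way it was 0.225. The move was -2.38 after quantile normalization, -2.44 with cyclic loess, and between -2.76 and -2.18 when any 1 array was left out. Actin genes are close in coding sequence, and whether probes of 1 isoform also bind another was not tested.

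The genes whose profile over the 6 arrays was most like that of Actc1, by root mean square distance between centred profiles among 17055 other genes, were muscle light chains and a troponin. Myl4, the embryonic and atrial myosin light chain, was nearest at 0.18 on the log2 scale, followed by the fast light chain Mylpf and the slow troponin Tnnc1, each at 0.40. For Acta1 the nearest were Cox8b, a muscle subunit of cytochrome oxidase, at 0.11, Pdlim3, a Z-disc protein, at 0.20, and the smoothelin-like Smtnl1 at 0.20. Profiles of unrelated genes can lie close over 6 arrays, so these distances are a description.

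Muscle actins work in the sarcomere beside troponins, myosins and their organisers, and a list of 20 genes, 19 of these partners and Myog, the transcription factor of muscle differentiation, was read from the same fit. Of these 6 rose and none fell: Tnnc1, Tnnt2, Myl4, Myog, Mylpf and Mybph. The median log2 fold change of the list was 1.14, and 0 of its genes fell in any of the 14 other settings. Tnnc1, which binds calcium on the thin filament, rose by 3.53 and the cardiac and embryonic troponin Tnnt2 by 2.72, and neither call was lost when any 1 array was left out. Myl4 rose by 2.65 and Mylpf by 2.27, with adjusted p of 0.0478 and 0.0413, and both calls were lost without any 1 of the fresh arrays, that of Myl4 also without cultured replicate 2. The embryonic myosin Myh3 did not pass, with a log2 fold change of 2.13 and an adjusted p of 0.128. The list was highest on cultured replicate 3 for 17 of 20 genes, with a median level of 5.63 there, 4.30 and 4.51 on cultured replicates 1 and 2 and 3.58 to 3.93 on the fresh arrays. The count of 6 became 2 without any 1 of the fresh arrays, 10 without cultured replicate 1, 9 with either rescaling and 13 with array weights. These weights were 2.63 for cultured replicate 3, 0.65 and 0.57 for cultured replicates 1 and 2, and 0.82 to 1.16 for the fresh arrays. The weighted count thus leans on the array where most of the list was highest. Of 10 markers of mature fibres, Eno3, the muscle enolase, rose by 2.27, Ckm, muscle creatine kinase, fell by 0.80 on the log2 scale, and 8 did not pass. The call of Ckm was lost without fresh replicates 2 or 3 or cultured replicates 2 or 3, with adjusted p values reaching 0.136. It was also lost with a block for the replicate number and with a trended prior, at adjusted p of 0.109 and 0.0742 in limma. The call of Eno3 was kept in each case. The summed log2 level of the 10 ran from 40.39 to 43.76 on the fresh and from 41.37 to 46.25 on the cultured arrays. Of the 10 markers, 7 were above background on all fresh arrays and 5 on all cultured arrays, while the adult myosin Myh4 was below background on 5 of the 6 arrays.

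**Figure D2:**
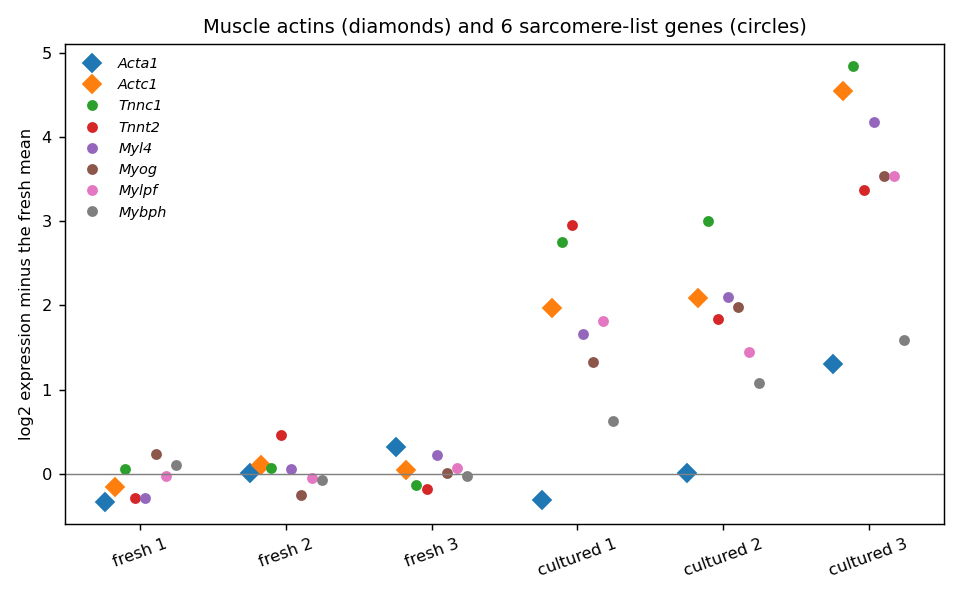
Log2 expression minus the mean of the fresh arrays, on each of the 6 arrays, for the muscle actins (diamonds) and the 6 genes of the sarcomere list that passed the test (circles). On the deposited scale Actc1, Tnnc1, Myl4 and Mylpf lie above 0 on each cultured array, and Acta1 stays near 0 except on cultured replicate 3.

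Among the smooth-muscle actins, Acta2, the isoform of vessel walls and myofibroblasts, was at 7.26, 6.24 and 6.80 on the fresh and at 7.92, 6.88 and 8.16 on the cultured arrays. The groups overlapped through cultured replicate 2, which lay below fresh replicate 1. The difference of 0.89 ± 0.37 (SE) had an adjusted p of 0.272. It passed after quantile normalization at 1.70 with an adjusted p of 0.015, and with cyclic loess at 1.40 and 0.027. The direction was upward in every setting run. Actg2, the enteric form, was at 3.32, 3.06 and 3.13 on the fresh and at 3.06, 3.50 and 3.37 on the cultured arrays. It was above background on 1 of 3 fresh and 2 of 3 cultured arrays, so no change can be read from it.

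Myl9, which is phosphorylated when contractile cells pull, was the steadiest of the genes that rose. It stood at 3.72, 3.14 and 3.13 on the fresh arrays and at 5.44, 4.67 and 5.41 on the cultured arrays. All cultured values were well above the fresh values, of which only replicate 1 was above background. Myl9 rose by 1.84 ± 0.26 (SE) on the log2 scale, a 3.59-fold difference, with an adjusted p of 0.00699. Since the other 2 fresh arrays were within background, the difference can be understated. It passed the test in all 14 other settings, at between 1.71 and 2.10. The 2 other probe set rules among them could not change its values, since it has no further probe set. The nearest profiles were those of the cell cycle genes Ube2c, Knstrn and Ccna2, at distances of 0.14, 0.20 and 0.21 on the log2 scale.

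Transgelin, Tagln, which marks smooth muscle and stress fibres, was lower on the cultured arrays. It stood at 6.96, 5.35 and 5.94 on the fresh and at 4.86, 4.18 and 3.69 on the cultured arrays. All cultured arrays were lower, and fresh replicate 1 stood above the other fresh arrays. On the log2 scale the difference was -1.84 ± 0.43 (SE), with an adjusted p of 0.0622. The gene did not pass in the main setting and passed in 7 of 14 others, among them both rescalings, at -1.62 and -1.75 with adjusted p of 0.0304 and 0.0291. Without cultured replicate 1 the difference was -2.15 (adjusted p of 0.0129 in limma), and leaving out any other array did not bring it past the test. Its nearest profiles were Mrpl52, Pakap and Selenos, at distances from 0.33 to 0.35.

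Myl9 and Tagln, both known from smooth muscle, were also set against each other within arrays. Myl9 minus Tagln was -3.24, -2.21 and -2.81 on the fresh arrays, while the cultured arrays gave 0.58, 0.49 and 1.72. The groups did not overlap, and the move was 3.68 on the log2 scale, with an exact two-sided permutation p = 0.10 and 0.225 adjusted over 9 pairs. Tagln minus Acta2 moved by -2.73, from -0.30, -0.90 and -0.86 on the fresh arrays to -3.06, -2.70 and -4.47 on the cultured arrays, with the same p values in the exact permutation test. Since 2 of the 3 fresh values of Myl9 were below background, its move was at least 3.63 with these set to the background level. Both moves kept their sign after quantile normalization, at 3.55 and -3.32, and with cyclic loess, at 3.54 and -3.15. Acta1 minus Acta2 moved by -0.55 with overlapping groups and an exact permutation p = 0.50.

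**Figure D3:**
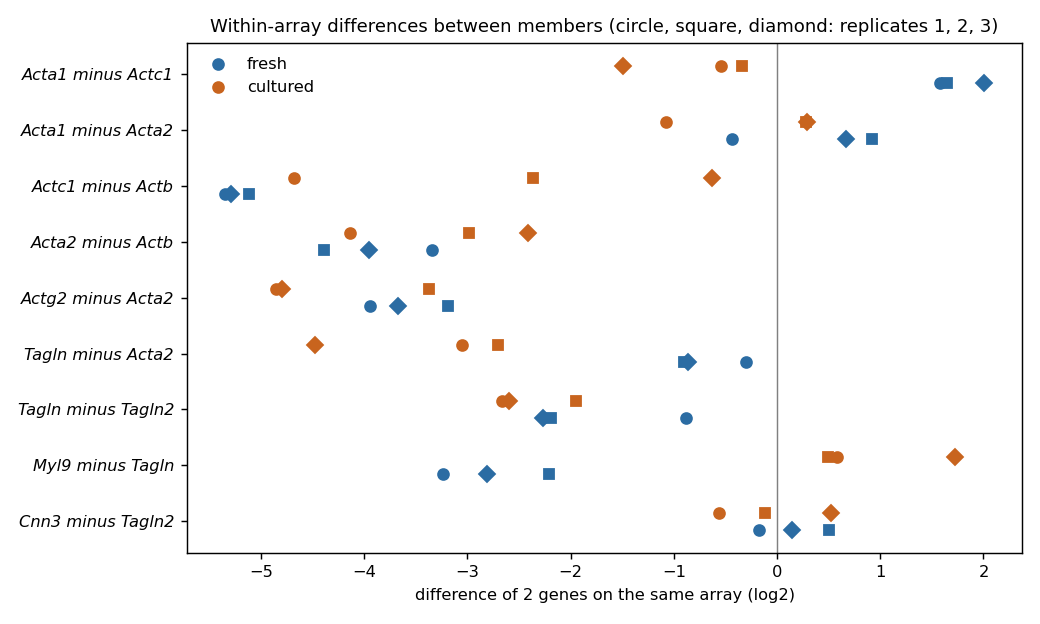
Difference of the log2 values of 2 genes on the same array for the 9 pairs compared, fresh in blue and cultured in orange, with replicates 1, 2 and 3 as circle, square and diamond. The groups are apart for Acta1 minus Actc1, Actc1 minus Actb, Tagln minus Acta2 and Myl9 minus Tagln.

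Markers of cells other than satellite cells were read beside these genes, since Acta2, Tagln and Myl9 are also high in vessel wall cells and fibroblasts. Of 13 markers of smooth muscle cells and pericytes none passed in limma at an adjusted p of 0.05, with 2 at an unadjusted p under 0.05, with a summed log2 level from 44.74 to 47.35 on the fresh and from 46.26 to 47.91 on the cultured arrays. Myh11, the smooth-muscle myosin that defines the lineage, was at 3.26, 3.26 and 3.11 on the fresh and at 3.66, 3.37 and 3.40 on the cultured arrays, close to background on all 6. Yet 7 of the 13 markers were above background on all fresh arrays, and 7 on all cultured arrays. Of 9 measured fibro-adipogenic markers 3 fell and none rose, Dpt, Dcn and Col3a1. The call of Col3a1, at -1.08, was lost with both rescalings and without fresh replicate 1 or 2 or cultured replicate 3, where the adjusted p reached 0.188, while those of Dpt and Dcn were kept in the same settings. Their summed level ran from 40.23 to 43.51 on the fresh and from 29.68 to 30.62 on the cultured arrays, with Dcn at 8.53, 7.78 and 5.86 on the fresh arrays. The part of these cells in the levels of Tagln and Acta2 was not tested, and in bulk RNA fewer cells of a type and less RNA per cell cannot be told apart. Of the 7 endothelial markers Tek fell and none rose, and of 6 measured immune markers none passed in limma, with 1 at an unadjusted p under 0.05. Their summed levels ran from 19.56 to 19.75 and from 16.02 to 17.73 on the fresh arrays, and from 20.21 to 20.71 and from 16.32 to 16.56 on the cultured arrays. Pecam1 and Ptprc, the genes of CD31 and CD45, which the sort selected against, were below background on every array. Above background on all fresh arrays were 2 of the 7 endothelial and 2 of the 6 immune markers, and on all cultured arrays 1 of each. The call of Tek was lost without fresh replicate 2 or 3 or cultured replicate 2 or 3, where the adjusted p reached 0.168. All 11 satellite cell markers were above background on the fresh arrays, 9 on all cultured arrays, and 7 fell, among them Pax7 by 1.33 on the log2 scale. The list holds Cxcr4, among the 7 that fell, and Itgb1, whose proteins CXCR4 and beta-1 integrin the sort selected for.

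Of the calponin-related genes that are widely expressed, Cnn3 fell. This gene, the acidic calponin of non-muscle cells, was at 7.66, 8.04 and 8.36 on the fresh and at 6.96, 6.01 and 6.80 on the cultured arrays. All cultured arrays were lower, replicate 2 most. Cnn3 fell by 1.43 ± 0.28 (SE) on the log2 scale, a 2.70-fold difference, with an adjusted p of 0.0322. The size depended on the scaling: it was -0.58 after quantile normalization, which ended the call at an adjusted p of 0.181, and -0.90 with cyclic loess at an adjusted p of 0.0416. The call was also lost without fresh replicate 2 or 3 or cultured replicate 3, where the values were -1.42, -1.26 and -1.54 and the adjusted p 0.122, 0.129 and 0.0917. The nearest profiles to Cnn3 were the phosphatase Dusp10, the antiproliferative Tob1 and the lysosomal Psap, at 0.10, 0.12 and 0.14.

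Tagln2, the transgelin of non-muscle cells, was at 7.84, 7.54 and 8.21 on the fresh and at 7.52, 6.12 and 6.28 on the cultured arrays. All cultured arrays were lower, but cultured replicate 1 lay just below the lowest fresh array. The difference of -1.22 ± 0.37 (SE) had an adjusted p of 0.128. Without cultured replicate 1 it was -1.66 and passed at an adjusted p of 0.00196, and it was -0.41 at 0.287 after quantile normalization and -0.70 at 0.0654 with cyclic loess. Of the 36 pairs among the 9 genes, Tagln2 and Cnn3 had the closest profiles, at a distance of 0.39, and Cnn3 minus Tagln2 moved by only -0.21, with overlapping groups and an exact permutation p = 0.70. Their differences from the fresh mean, -1.74 and -2.02 on cultured replicate 2 and -1.58 and -1.22 on cultured replicate 3, lay near or below the medians of -1.30 and -0.91 of genes of their brightness. On cultured replicate 1, where that median was 0.04, Tagln2 was at -0.34 and Cnn3 at -1.06.

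Of the 3 family members outside the 10 genes, Cnn2 rose. Cnn2, the calponin of smooth muscle and non-muscle cells, was at 3.66, 3.66 and 3.56 on the fresh and at 5.17, 4.57 and 4.30 on the cultured arrays and rose by 1.05, with an adjusted p of 0.0412. This call was lost when a fresh array (any of the 3) or cultured replicate 2 was left out, with adjusted p values reaching 0.15. With a block for the replicate number neither Cnn2 nor Cnn3 passed in limma, at adjusted p of 0.0573 and 0.0549. Cnn1, the smooth-muscle calponin, and Tagln3, the neuronal transgelin, had log2 fold changes of 0.39 and 0.23 and did not pass. In the main setting, on the deposited scale with all 6 arrays, Cnn2 was thus higher and Cnn3 lower in culture.

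The cytoplasmic actin Actb, often used as a reference gene, was nearly the same on the fresh arrays, at 10.60, 10.63 and 10.75. On the cultured arrays it was at 12.06, 9.86 and 10.58. Replicate 1 was above and replicates 2 and 3 were below all fresh arrays, a spread of 2.20 on the log2 scale or 4.59-fold between cultured arrays, against 0.15 between fresh arrays. The difference of 0.17 ± 0.48 (SE) had an adjusted p of 0.895, and it was -0.44 without cultured replicate 1. Actb lay above the median of genes of its brightness on each cultured array, at 1.40, -0.80 and -0.08 from its fresh mean beside medians of 0.47, -1.34 and -0.93. After quantile normalization the gene was higher by 1.81 with an adjusted p of 0.00209, and with cyclic loess by 1.65 with an adjusted p of 0.000247 and cultured arrays within 0.42 of each other. Whether Actb rose is therefore set by the scaling. The genes nearest in profile were the condensin subunit Smc4, the proteasome subunit Psma4 and the ubiquitin-conjugating enzyme gene Ube2v2, at 0.08, 0.10 and 0.12.

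**Figure D4:**
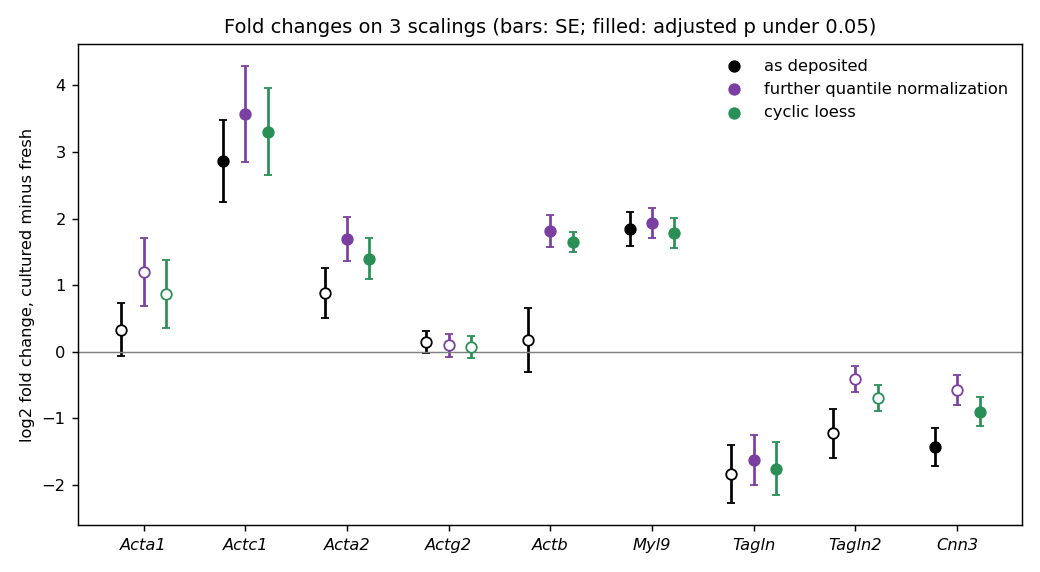
Log2 fold change of cultured minus fresh with its SE for the 9 genes, on the deposited scale, after a further quantile normalization and with cyclic loess (filled where the adjusted p was under 0.05). All 9 genes keep their direction. Actb goes from 0.17 to 1.81 and 1.65, and Cnn3 and Tagln2 come closer to 0. Acta2, Actb and Tagln are filled on the rescalings alone.

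Against Actb on the same array, Actc1 was at -5.35, -5.11 and -5.29 in fresh cells and at -4.68, -2.36 and -0.63 in cultured cells. The groups did not overlap and the move was 2.70, with an exact permutation p = 0.10, or 1.76 and 1.66 after the rescalings. Acta2 minus Actb moved by 0.71 with overlapping groups and an exact permutation p = 0.30, and the sign turned after the rescalings, at -0.12 and -0.25. The level of Acta2 relative to Actb therefore has no settled direction here.

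**Figure D5:**
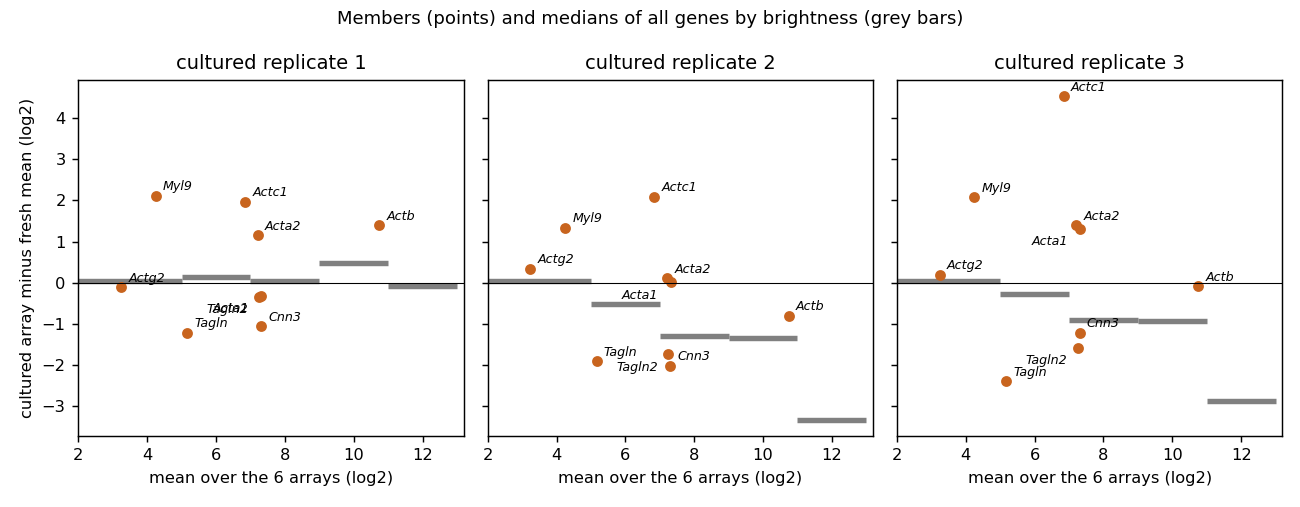
Difference of each of the 9 genes from its fresh mean on cultured replicates 1, 2 and 3 (points), against its mean over the 6 arrays, with the median difference of all genes of each brightness range as grey bars. Actb, Acta2, Actc1 and Myl9 lie above the bar of their range on each cultured array, and Tagln, Tagln2 and Cnn3 below it.

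Genes that handle actin monomers and turn filaments over were read as a list. Of 18 genes 1 fell and none rose on the deposited scale, with a median log2 fold change of 0.01, while 4 rose after quantile normalization and 3 with cyclic loess. Gsn, the severing protein gelsolin, fell by 2.25 (log2) at an adjusted p of 0.00189. The thymosins, which hold actin monomers, were at 1.58 for Tmsb10 and -1.12 for Tmsb4x and did not pass, with Tmsb10 at 14.32 on cultured replicate 1 and 11.04 and 11.94 on the other cultured arrays. The count of genes that fell became 5 without cultured replicate 1, the most of any left-out array. None of 14 measured genes of the Arp2/3 complex and the formins, which nucleate filaments, passed in limma, with 2 at an unadjusted p under 0.05, and the largest differences were -0.64 for Arpc5 and -0.61 for Arpc1a. After quantile normalization 3 of them rose, with cyclic loess 1 rose, and without cultured replicate 1 a single gene fell.

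Among 13 crosslinkers and bundlers, Tpm2, the beta tropomyosin that lies along the thin filament, rose by 1.55 with an adjusted p of 0.0104, kept without any 1 array, and none fell. With either rescaling 2 of them rose and 1 fell, with array weights 3 rose and 2 fell, and without cultured replicate 1 the falls numbered 3. In the list of myosin II and its regulators 1 of 11 genes fell and none rose. These counts depended on the setting: 2 rose with either rescaling, 3 fell with cyclic loess, and 4 fell with array weights or without cultured replicate 1. The gene that fell on the deposited scale was Myl12b, the non-muscle regulatory light chain closest in role to Myl9, at 8.08, 7.97 and 8.19 on the fresh and at 6.88, 6.49 and 6.15 on the cultured arrays. It fell by 1.58 (log2) at an adjusted p of 0.00416, by 1.05 with cyclic loess at 0.0179, and did not pass after quantile normalization, at -0.73 with an adjusted p of 0.0971. The light chain Myl12a (-1.33, adjusted p 0.104) and the heavy chain Myh9 (0.80, adjusted p 0.162) did not pass.

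SRF itself was at 4.64, 5.22 and 4.85 on the fresh and at 5.17, 4.64 and 5.05 on the cultured arrays, with overlapping groups and an adjusted p of 0.932. Its coactivators Mrtfa and Mrtfb were at -0.11 and 0.28 and did not pass, and Myocd, the smooth- and heart-muscle coactivator, was below background on every array. Of 15 genes in the list of SRF, its partners and their usual targets, 3 fell and 1 rose, with a median of 0.06, and 2 rose with either rescaling. The early response gene Egr1 fell by 5.22 and the matricellular genes Ccn2 and Ccn1 by 2.82 and 2.81 on the log2 scale, and each call was kept without any 1 array. Ccn1 was at -2.00 and -2.18 after the rescalings and passed in both. Tpm1, the alpha tropomyosin, rose by 2.49 with an adjusted p of 0.0138, lost without fresh replicate 2 or 3 or cultured replicate 3, where it reached 0.0748. The called genes of this list thus went in both directions.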

How the data were processed

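The values used are log2 expression values as deposited by the authors, for 35556 probe sets on each of the 6 arrays; per the submitters' processing notes they were made with RMA and the package oligo, with versions, build and further steps not given in the sources used here. RMA corrects background, normalizes quantiles and summarises probes, and it compresses differences near background. The deposited values nonetheless differed in distribution between arrays. The further quantile normalization moved Actb on cultured replicate 2 from 9.86 to 12.30. Array medians lay between 3.10 and 3.15. Of the probe sets 21789 had 1 gene in the platform annotation, 1621 had more than 1 and stayed unnamed, and 12146 had no entry. The brightest probe set per gene by mean over the 6 arrays was kept. The test was limma 3.58.1 in R 4.3.3 (lmFit, eBayes, group as the only term). Within-array differences of gene pairs, fixed by name, were compared with exact permutation tests in scipy 1.17.1; the pair of Actg1 and Actb could not be formed.

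The members and lists were chosen with earlier results of these data known. The text names all members, up to 4 genes past the test per pathway list or else those with the largest differences, defining markers and nearest profiles; Cnn1, Tagln3, Myh3, Tmsb10, Tmsb4x, Myl12a, Myh9, Srf and its coactivators, Eno3, Ckm and Tek were added after their values were seen. The lists of pathway genes and markers carry no set test. The fit was tested on simulated data for the comparison of cultured with fresh cells over 19938 genes. With 50 genes changed at each size, 38 were recovered at a log2 change of 1, 50 at 2, 49 at 3 and 50 at 4, with 9 false calls. The simulation holds equal spread in both groups, which the data do not. The alternatives were quantile normalization, cyclic loess, array weights, a filter on dim genes, a prior with trend and robust set, a block for the replicate number, 2 other probe set rules and leaving out each array.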

Additional observations from a re-analysis of the deposited data

How the results depend on the processing

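Over 14 other settings Myl9 kept its call in all and Actc1 in 11. The 2 other probe set rules could not change member values, since no member has a further probe set. The replicate block, the trended prior and the filter on dim genes changed the tests but no member's fold change. Members past the test numbered 2 higher and 1 lower as deposited. They were 3 lower with array weights, 4 higher and 1 lower after quantile normalization, 4 higher and 2 lower with cyclic loess, and 2 lower without dim genes. With 1 array left out they ranged from 1 to 2 higher and from 0 to 3 lower. The array weights counted cultured replicate 3 most, at 2.63, and cultured replicates 1 and 2 least, at 0.65 and 0.57. The calls that changed on scales or models were Acta2 (1.70 and 1.40 with quantile normalization and cyclic loess), Actb (1.81 and 1.65), Tagln2 (-1.41 with array weights), Tagln (-2.04 with array weights, -1.62 and -1.75 with the rescalings, and -1.84 with the trended prior or without dim genes) and Cnn3 (lost at -0.58 with quantile normalization and at -1.43 with the trended prior).

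Leaving out 1 array gave 2.03 to 3.32 for Actc1, -2.21 to -1.40 for Tagln, -1.66 to -0.96 for Tagln2, -1.62 to -1.14 for Cnn3, 0.62 to 1.27 for Acta2, -0.15 to 0.65 for Acta1 and -0.44 to 0.66 for Actb, where the negative ends turn the sign. Over all genes, 861 passed, 190 higher and 671 lower. They were 1742 (585 and 1157) with array weights, 1595 (698 higher) with quantile normalization, 1515 (498 and 1017) with cyclic loess, and 448 to 1517 (51 to 279 higher, 380 to 1278 lower) with 1 array left out. The cause of these shifts was not tested.

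The replicate numbers are not stated to pair arrays. Same-numbered arrays had correlations of deviations of -0.09, -0.14 and 0.03, and of the 3 cultured arrays 0 correlated best with their own number. With the replicate block 101 genes were higher, Tagln passed at -1.84 with an adjusted p of 0.0181, and Cnn3 was at -1.43 with an adjusted p of 0.0549. The number of arrays limits the precision, and near background Actg2 and the fresh level of Myl9 carry little signal.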
